A study of Mus musculus with 6 samples.

Results

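The 33 genes described here encode the chaperones, folding enzymes, degradation factors, translocon subunits and stress sensors of the endoplasmic reticulum (ER). They were taken as listed gene symbols, each looked up among probe sets that the platform annotation gives 1 symbol, and all 33 were found among 18193 such genes. They fall into 4 sensors and factors, 9 chaperones and cochaperones, 7 lectin chaperones and disulfide isomerases, 8 genes of ER-associated degradation, and 5 of the translocon and its associated TRAP complex.

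The cells were C2C12, a line of mouse myoblasts, muscle precursors that can fuse into myotubes. All cells were seeded in 100 mm dishes and kept for 72 h at the same temperature, and the labels name no genetic change in either group. The 3 untreated samples were in DMEM, to which L-glutamine (4 mM), fetal bovine serum (10%) and antibiotics (1%) had been added, and the 3 pyruvate samples had the same supplements plus 50 mM sodium pyruvate, in DMEM made without it. No source used here says whether the basal DMEM of the untreated samples held some pyruvate, so the basal media of the groups may have differed. The labels describe no second sodium salt for the untreated cells, so pyruvate and added sodium cannot be told apart. Each sample was 1 Affymetrix Mouse430_2 array of total RNA. Nothing in the labels tells if the 3 samples in each group came from different cultures. The p-values therefore reflect just the scatter among these 6 samples, and that scatter may be technical.

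Secreted and membrane proteins enter the ER through the Sec61 channel and fold there with the help of BiP, its cochaperones, the lectins calnexin and calreticulin, and the protein disulfide isomerases. Proteins that fail to fold are moved back to the cytosol and degraded. When unfolded proteins build up, the membrane proteins IRE1, PERK and ATF6 start the unfolded protein response: IRE1 splices the Xbp1 mRNA, PERK phosphorylates eIF2alpha and so favours translation of ATF4, and ATF6 is cut to release a transcription factor. The induced genes include most of the chaperones described here, and myoblasts are known to pass through a phase of this response as they differentiate.

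Values are MAS5 signals, brightness on a linear scale, and changes are differences of log2(signal + 16), pyruvate minus untreated. A gene is represented by its brightest probe set and is said to have risen or fallen where limma's adjusted p, over all probe sets tested, was under 0.05. Signals of different genes come from different probes, so no gene's level is ranked against another's; sums over a marker list serve only to compare arrays. In whole cultures, fewer cells of a type and less RNA per cell cannot be told apart.

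Across arrays, signals correlated at 0.985 to 0.991 within the groups and at 0.979 to 0.983 between them. Of the 6 myoblast markers, Myod1 was higher with pyruvate (0.26), Myf5, Cdh15 and Itga7 were lower (-0.65, -0.39 and -0.21), Des was not called and Pax7 was below the signal filter. Their summed signal was 7664 to 7958 untreated and 6801 to 7033 with pyruvate. The untreated cultures, undifferentiated by their labels, also carried myotube transcripts: the summed signal of 12 myotube markers was 6596 to 7170 untreated and 854.0 to 1046 with pyruvate. Of the 11 myotube markers above the filter, 10 were lower with pyruvate. The summed signal of the fibroblast list was 3406 to 3711 untreated and 4227 to 4420.0 with pyruvate. Of its 4 members above the filter only Col1a2 was called, from 3062 to 3850.2, while Col1a1 and Dcn were at -0.24 and -0.19 and Pdgfra at 0.46. Thy1, Tcf21 and Lum were below the filter. The macrophage sum was 226 to 256 untreated and 353 to 406 with pyruvate. Of that list Cd14 was higher, from 108 to 224, and Ptprc, Adgre1 and Itgam were below the filter. The endothelial sum was 65.8 to 87.5 untreated and 45.0 to 56.1 with pyruvate. Of that list Kdr was lower (-0.43), and Pecam1, Cdh5 and Tek were below the filter. The part of these marker differences in the ER genes' values was not tested.

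The ER genes moved in both directions and by little. Of the 32 tested, 10 rose and 5 fell, which is 46.9%. Over all 10685 genes tested, 35.1% were called, 20.7% higher and 14.5% lower. By role the share was 25.0% for sensors and factors, 44.4% for chaperones and cochaperones and 71.4% for lectins and isomerases. It was 42.9% for degradation and 40.0% for the translocon and TRAP complex. The largest change was the fall of Dnajc3, by 0.52, and the largest rise that of Pdia6, 0.35. The median change was 0.041, against 0.032 over all genes, and the median absolute change was 0.14 against 0.17. The 3 pyruvate arrays lay wholly above or below the 3 untreated arrays for 20 of the 32 (62.5%, against 48.6% of all genes). By probe signal, the ER genes' median percentile among genes tested was 82.0, and 19 of the 32 were above the 75th. The shares over all genes are therefore not from genes of like brightness, and no such background was drawn. For each of the 17 genes not called, the brightest probe set's 95% interval lay within 0.5 of zero, with bounds from -0.35 to 0.40. Dimmer probe sets of Hspa5, Ern1, Canx and Edem1 had intervals that reached further, for Hspa5 from -0.685 to -0.21. The remaining gene, Derl3, was below the signal filter.

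**Figure D1:**
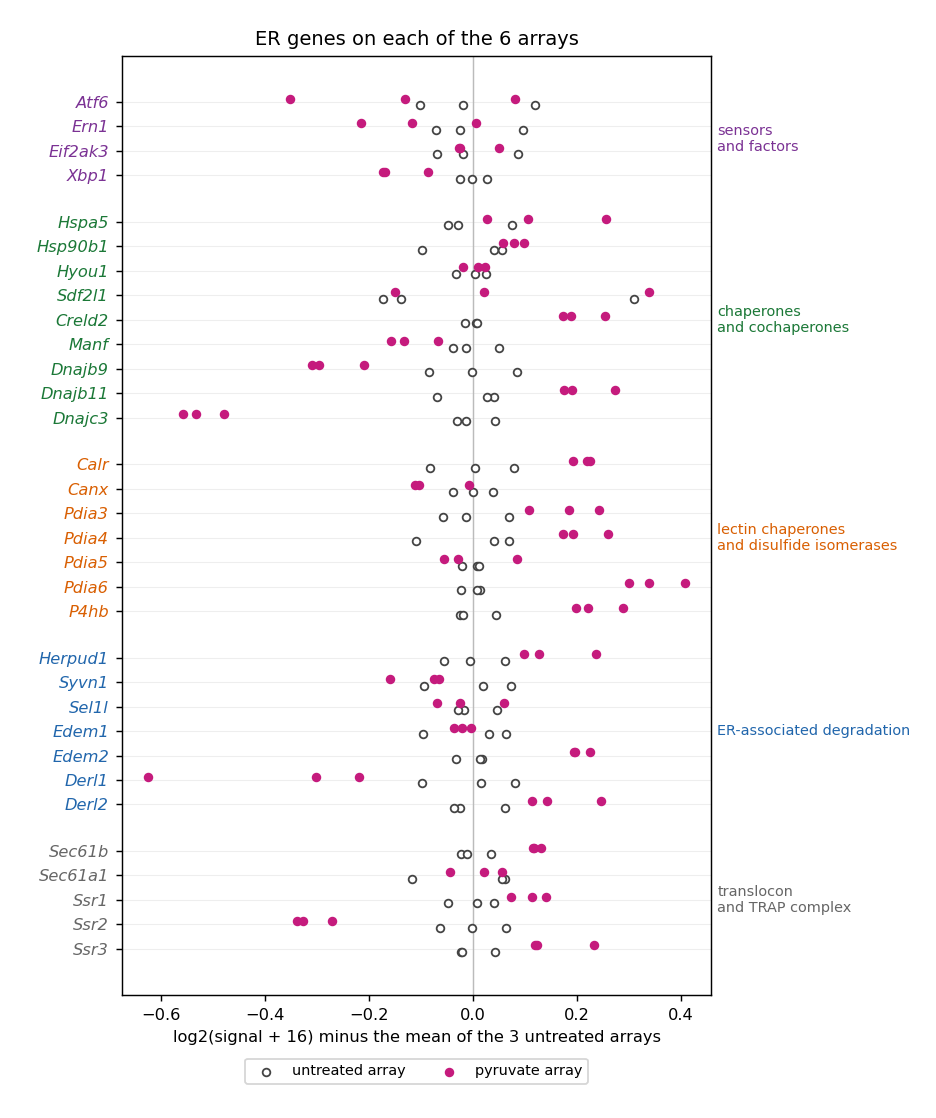
Each row is an ER gene and each point 1 array, plotted as log2(signal + 16) minus the mean of the 3 untreated arrays; open points are untreated and filled points pyruvate arrays. All 3 pyruvate arrays of Dnajc3, Dnajb9, Derl1 and Ssr2 lie to the left of the untreated arrays, and all 3 of Pdia6, P4hb and Creld2 lie to the right.

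How many genes were called depended on 1 array at a time and on the scaling. Without untreated replicate 1 or untreated replicate 3, 9 ER genes were called, and 10 were called without pyruvate replicate 3. Without untreated replicate 2 or pyruvate replicate 2 the number was 11, and without pyruvate replicate 1 it was 17. Over all probe sets tested, 5376 to 7040 were called with 1 array left out, against 7250 with every array. Creld2, Derl1, Dnajb9, Dnajc3 and Ssr2 were called under all 17 alternatives tried. Of these, Creld2, Dnajb9 and Ssr2 have only 1 probe set each, so averaging over probe sets could not alter their changes. The brightest genes shifted upward as a class in the deposited scaling: of 472 genes with a mean signal of 2000 or more, 402 had a change above 0, with a median of 0.22. After quantile normalization, which gives all arrays the same distribution, 247 of these genes were above 0 and their median was 0.011. The 9 ER genes in this class had a median of 0.13 as deposited and 0.026 after quantile normalization.

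After quantile normalization 13 ER genes were called, 6 higher and 7 lower, beside 34.6% of all genes. Of the 15 called as deposited, 11 were called again in the same direction. Creld2, Dnajb11, Pdia4, Pdia6, Edem2 and Derl2 were higher in both, and Xbp1, Dnajb9, Dnajc3, Derl1 and Ssr2 lower in both. On their brightest probe sets, Calr, Pdia3, P4hb and Ssr3 were not called after quantile normalization, with changes of 0.093, 0.067, 0.026 and 0.026. Dimmer probe sets of Calr (0.15, adjusted p = 0.0232) and Ssr3 (0.20, adjusted p = 0.0116) were still called higher. Another of Calr (0.068) and the dimmer one of Pdia3 (-0.084) were not called, and P4hb had no other. Manf, at -0.15 (adjusted p = 0.0310), and Canx, at -0.21 (adjusted p = 0.00122), were called lower after quantile normalization and not as deposited.

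**Figure D2:**
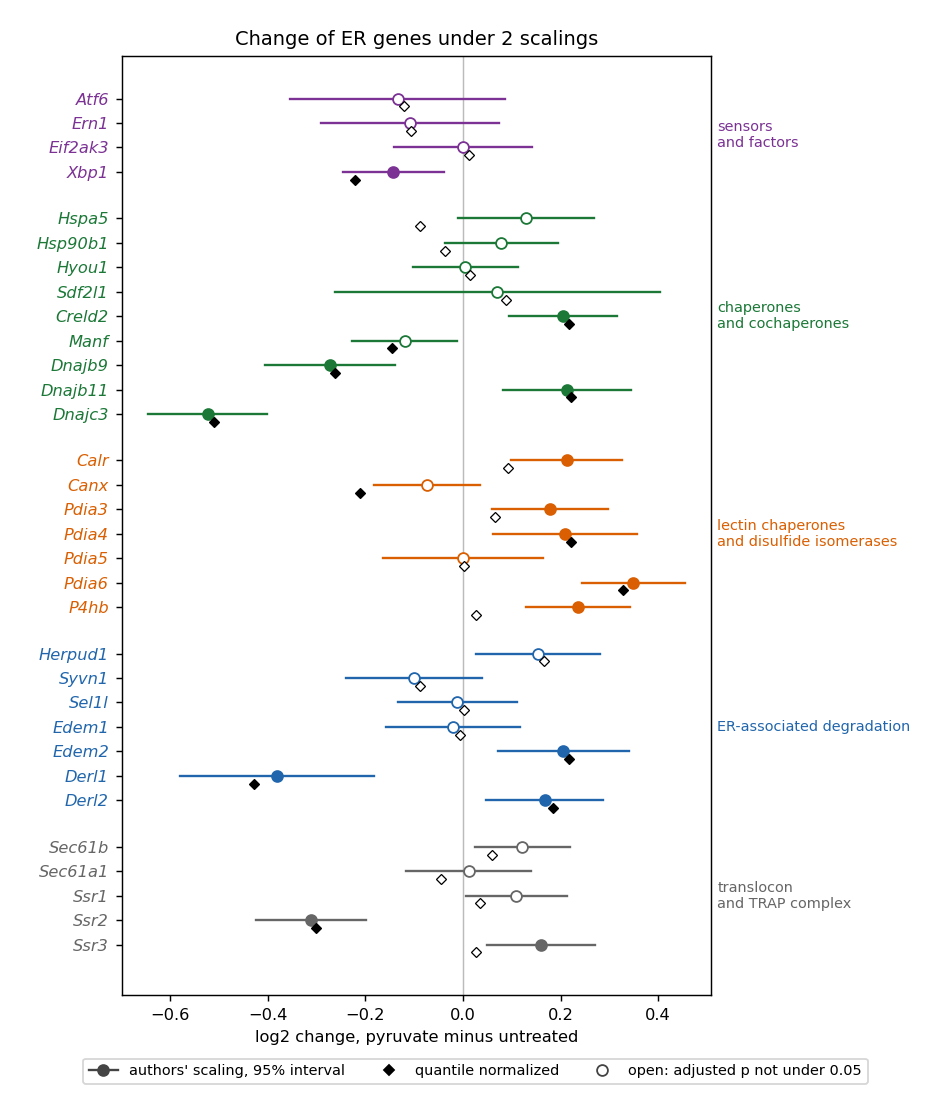
Points give each ER gene's log2 change, pyruvate minus untreated, in the deposited scaling with its 95% interval, and diamonds the change after quantile normalization; open symbols have an adjusted p not under 0.05. The bright genes Hspa5, Calr, Pdia3, P4hb and Ssr3 move toward 0 or past it after quantile normalization, while Dnajc3, Pdia6 and Ssr2 move little.

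Many of these genes share a promoter element, the ER stress response element (ERSE), which ATF6 and XBP1 are known to bind together with NF-Y. It was searched for as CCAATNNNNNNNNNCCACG on both strands of RefSeq promoter windows, 250 bases before to 50 after each start site (GRCm38.p6). Windows were found for 27 of the 33 genes, and not for Atf6, Hyou1, Manf, Derl1, Sec61a1 and Ssr2. The element was present for 9 of the 27 (33.3%) and for 37 of 27025 genes in all (0.137%), so 9 of the 37 genes with it are ER genes of this set. The related ERSE-II, searched as ATTGGNCCACG on both strands, was present for Dnajb11 and Herpud1, and for 12 genes in all (0.0444%). The elements do not overlap one another in these windows. They are shown because they are what 11 of these genes have in common outside the array values, and because their variable middle differs from gene to gene. Each is given 5′ to 3′ on the strand that carries it, with the fixed bases in capitals.
Hspa5: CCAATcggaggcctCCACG
Hsp90b1, upstream copy: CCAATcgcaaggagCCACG
Hsp90b1, downstream copy: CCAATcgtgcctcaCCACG
Creld2: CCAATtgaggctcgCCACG
Dnajc3: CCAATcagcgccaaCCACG
Calr: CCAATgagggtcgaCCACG
Canx: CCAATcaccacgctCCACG
Pdia6: CCAATgaaaggcggCCACG
Syvn1: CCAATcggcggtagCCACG
Derl3: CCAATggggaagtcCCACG
Dnajb11, ERSE-II: ATTGGcCCACG
Herpud1, ERSE-II: ATTGGgCCACG

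In Creld2, Calr, Derl3 and the downstream copy of Hsp90b1 the element ran opposite to the gene. The ERSE of Hspa5 lay 65 to 47 bases before the start site, that of Dnajc3 105 to 87, that of Pdia6 98 to 80 and that of Syvn1 44 to 26. The ERSE of Canx lay 145 to 127 bases before the start, that of Calr 162 to 144, that of Creld2 126 to 108 and that of Derl3 156 to 138. Hsp90b1 had copies 212 to 194 and 107 to 89 bases before its start. The ERSE-II of Herpud1 lay 52 to 42 bases before the start and that of Dnajb11 7 to 17 bases after it. By role, either element was present for 5 of 7 chaperones and cochaperones with a window, 3 of 7 lectins and isomerases, 3 of 7 degradation genes, 0 of the 3 sensors and factors and 0 of 3 translocon genes. A match is a description of the letters, not evidence of binding.

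Genes with an element did not move together. Of the 11, 10 were tested, 4 rose (Creld2, Dnajb11, Calr, Pdia6), 1 fell (Dnajc3) and 5 were not called (Hspa5, Hsp90b1, Canx, Herpud1, Syvn1). As deposited, their median change was 0.14, against 0.0029 for the 22 other ER genes tested, of which 6 rose and 4 fell. The 22 include the 6 without a window. The shares called were 50.0% and 45.5%, against 35.1% of all genes. After quantile normalization the bright Hspa5, Hsp90b1, Canx and Calr were at -0.088, -0.038, -0.21 and 0.093. Creld2, Dnajb11, Pdia6, Herpud1, Syvn1 and Dnajc3 were then at 0.22, 0.22, 0.33, 0.17, -0.088 and -0.51. Medians of the 2 sets after quantile normalization were not computed. The 250 bases before the start are printed for 3 genes with the same ERSE on the gene's own strand: Hspa5, which was not called (chr2:34771840-34772089, plus strand), Pdia6, which rose (chr12:17266339-17266588, plus strand), and Dnajc3, which fell (chr14:118937682-118937931, plus strand). Capitals mark the fixed bases of the element (RefSeq, GRCm38.p6).
Hspa5: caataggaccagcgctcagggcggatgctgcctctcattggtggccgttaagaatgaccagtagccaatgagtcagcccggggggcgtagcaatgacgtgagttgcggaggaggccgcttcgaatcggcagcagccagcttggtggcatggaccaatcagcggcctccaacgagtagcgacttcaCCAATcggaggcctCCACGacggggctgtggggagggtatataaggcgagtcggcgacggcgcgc
Pdia6: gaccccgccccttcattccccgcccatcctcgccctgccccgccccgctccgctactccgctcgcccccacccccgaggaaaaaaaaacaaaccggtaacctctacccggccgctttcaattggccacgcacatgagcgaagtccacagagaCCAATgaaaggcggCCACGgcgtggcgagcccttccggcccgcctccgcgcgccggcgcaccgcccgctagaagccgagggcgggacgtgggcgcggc
Dnajc3: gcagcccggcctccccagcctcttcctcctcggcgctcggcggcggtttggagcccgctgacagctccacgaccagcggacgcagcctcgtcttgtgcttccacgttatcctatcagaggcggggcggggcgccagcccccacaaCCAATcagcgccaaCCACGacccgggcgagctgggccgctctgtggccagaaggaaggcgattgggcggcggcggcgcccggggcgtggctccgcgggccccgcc

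**Figure D3:**
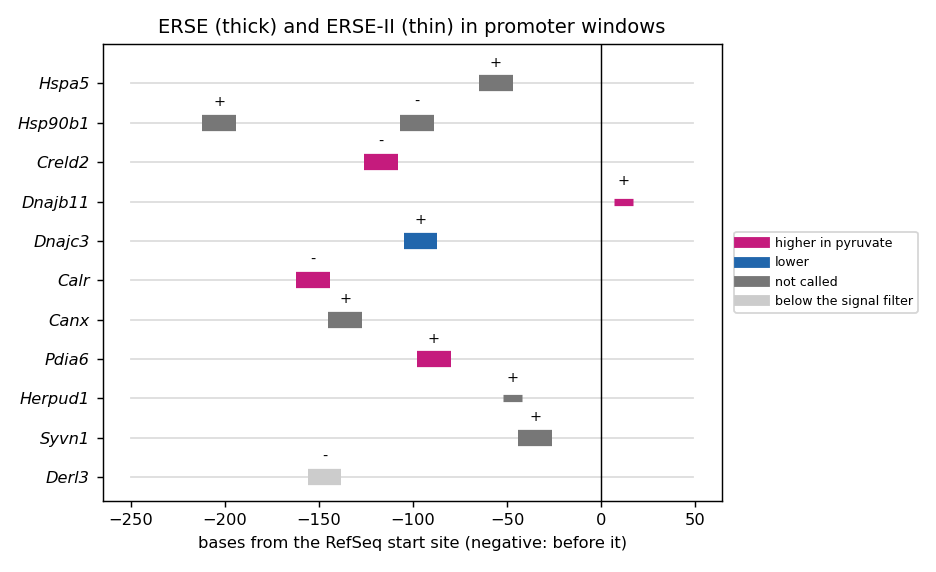
Each line is the promoter window of an ER gene with an ERSE (thick box) or ERSE-II (thin box), in bases from the RefSeq start site; the sign is the strand relative to the gene and the colour the gene's call. Elements lie from 212 bases before to 17 bases after the start, and 4 of these genes were higher, 1 lower, 5 not called and Derl3 below the signal filter.

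Among the sensors and factors, Xbp1 fell and the 3 sensors were not called. Their median change was -0.12. Xbp1 encodes the transcription factor whose mRNA IRE1 splices. Its signal was 2420.5, 2372.1 and 2335.6 on the untreated arrays and 2235.9, 2107.0 and 2111.8 with pyruvate. The groups did not overlap, and pyruvate replicate 1 was closest to the untreated arrays. The change was -0.14 (SE 0.05, adjusted p = 0.0376), and -0.22 after quantile normalization (adjusted p = 0.00263). All 4 Xbp1 probe sets were lower, the others by -0.22, -0.33 and -0.44 (adjusted p = 0.00633, 0.0290 and 0.000344). The brightest probe set lost its call without any 1 array except pyruvate replicate 1: its adjusted p was 0.147, 0.0984 and 0.0688 without untreated replicates 1, 2 and 3, and 0.0656 and 0.112 without pyruvate replicates 2 and 3. Splicing of Xbp1 was not analysed here.

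Atf6, the membrane-bound transcription factor, had signals of 328.2, 385.0 and 348.1 untreated and 374.3, 321.1 and 273.3 with pyruvate, which overlapped. Its change was -0.13 (95% interval -0.35 to 0.086, adjusted p = 0.341). It ran from -0.24 without pyruvate replicate 1 to -0.025 without pyruvate replicate 3, and was called in neither. Ern1, which encodes IRE1alpha, went from 199 ± 13.1 to 183 ± 15.3 (SD, n = 3), a change of -0.11 (interval -0.29 to 0.074, adjusted p = 0.352). A dimmer Ern1 probe set fell by 0.40 (adjusted p = 0.0238), from 77.7 to 54.9. Eif2ak3, which encodes PERK, was at 312 ± 18.3 untreated and 312 ± 10.0 with pyruvate, a change of -0.00058 with an interval of -0.14 to 0.14.

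The chaperones and cochaperones split, with 2 higher, 2 lower and 5 not called, and a median of 0.070. Hspa5 encodes BiP, the main Hsp70 of the ER lumen and the usual marker of the unfolded protein response. Its brightest probe set gave 3324.9, 3621.1 and 3369.9 untreated and 3504.5, 4105.9 and 3700.9 with pyruvate. The groups overlapped, since pyruvate replicate 1 was below untreated replicate 2. The change was 0.13 (SE 0.06, interval -0.0090 to 0.27, adjusted p = 0.143), and with 1 array left out it ran from 0.067, not called, without pyruvate replicate 2 to 0.18 (adjusted p = 0.0452) without pyruvate replicate 1. Under median centring it was called, at 0.16 (adjusted p = 0.0336). The other 2 Hspa5 probe sets fell, by 0.27 (from 1971 to 1640.0, adjusted p = 0.00398) and by 0.45 (from 332 to 236, adjusted p = 0.00901). The mean over its probe sets was -0.19 (adjusted p = 0.0355), so the sign of the Hspa5 difference depended on the probe set, and after quantile normalization the brightest was at -0.088 (adjusted p = 0.134).

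Hsp90b1 encodes GRP94, the ER's Hsp90. Its signal was 2543 ± 147.8 untreated and 2683 ± 39.1 with pyruvate, a change of 0.079 (interval -0.037 to 0.19, adjusted p = 0.285), and its other probe set fell by 0.17 (adjusted p = 0.0337). Hyou1, the nucleotide exchange factor GRP170 of BiP, was at 633 ± 13.1 and 635 ± 9.66, with an interval of -0.10 to 0.11. Sdf2l1, a partner of ER J-proteins, had signals of 95.9 to 140.4 untreated and 97.7 to 143.4 with pyruvate. The spread in both groups left its interval wide, -0.26 to 0.40.

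Creld2 and Manf are small secreted or ER-resident proteins induced by ER stress. Creld2 gave 537.2, 529.5 and 538.5 untreated and 612.5, 641.2 and 605.2 with pyruvate. All pyruvate arrays were above all untreated arrays, and the rise was 0.21 (SE 0.05, adjusted p = 0.00906). Manf went the other way, from 1354.7, 1329.9 and 1416.5 to 1244.7, 1303.6 and 1224.4, without overlap, at -0.12 (interval -0.23 to -0.012, adjusted p = 0.0855).

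The J-domain cochaperones, which deliver substrates to BiP and stimulate its ATPase, were called in both directions. Dnajc3 encodes p58IPK, a cochaperone also known as an inhibitor of PERK. Its signal was 470.1, 495.2 and 476.1 untreated and 340.3, 327.4 and 321.5 with pyruvate. Each group was tight and they lay far apart, with a fall of 0.52 (SE 0.06, adjusted p = 4.40e-05). All 5 Dnajc3 probe sets were below 0, and 3 of them were called, the dimmest at -0.76 (adjusted p = 0.00227).
Dnajb9, or ERdj4, which acts on BiP and IRE1, fell from 559.4, 525.9 and 495.2 to 421.8, 425.6 and 452.9, by 0.27 (SE 0.06, adjusted p = 0.00555). Dnajb11, or ERdj3, rose from 351.7, 348.1 and 324.4 to 391.7, 387.5 and 415.5, by 0.21 (SE 0.06, adjusted p = 0.0186). Neither pair of groups overlapped. The Dnajb11 call was lost without untreated replicate 3 (0.18, adjusted p = 0.0743) and without pyruvate replicate 3 (0.18, adjusted p = 0.0641).

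The lectin chaperones and disulfide isomerases leaned upward as deposited: 5 of 7 rose (71.4% called, against 35.1% of all genes), none fell, and the median was 0.21. Calr, Canx, Pdia3 and P4hb are in the class with signals of 2000 or more. Over the 472 genes of that class the median was 0.22 in the same scaling. After quantile normalization 2 of the 7 were higher and 1 was lower (42.9% called, against 34.6% of all genes), and the median was 0.067. Pdia6, an isomerase also known as P5 that works with BiP, gave 1021.6, 1048.9 and 1044.0 untreated and 1381.9, 1316.7 and 1282.9 with pyruvate. The groups were well apart, and the rise was 0.35 (SE 0.05, adjusted p = 0.000243), and 0.33 after quantile normalization. Its second probe set was dim, 40.5 and 25.8, and fell by 0.44 (adjusted p = 0.0454), which makes Pdia6 the only one of the 23 ER genes with several probe sets whose calls ran both ways. The mean over its probe sets was -0.047 (adjusted p = 0.663).

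Calr, Pdia3 and P4hb were all among the bright genes whose brightest probe set was not called after quantile normalization. Calr encodes calreticulin, the soluble lectin that holds glycoproteins for folding. It gave 2622.1, 2488.7 and 2342.5 untreated and 2838.2, 2902.8 and 2894.1 with pyruvate, a rise of 0.21 (SE 0.05, adjusted p = 0.00893), and 2 of its 3 probe sets were called higher. P4hb, the classical disulfide isomerase and a subunit of prolyl 4-hydroxylase, rose from 3197.4, 3354.3 and 3209.5 to 3737.6, 3978.6 and 3793.3, by 0.24 (SE 0.05, adjusted p = 0.00335). Pdia3, or ERp57, the isomerase that binds both lectins, rose from 2392 ± 107.9 to 2708 ± 127, by 0.18 (adjusted p = 0.0257). Its call was lost without untreated replicate 1 (adjusted p = 0.0905), untreated replicate 3 (0.103) or pyruvate replicate 3 (0.103), and averaged over its probe sets it was at 0.021 (adjusted p = 0.837).

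Pdia4, or ERp72, gave 264.9, 295.6 and 302.0 untreated and 325.9, 330.3 and 347.0 with pyruvate. The groups did not overlap, and the rise was 0.21 (SE 0.07, adjusted p = 0.0339). It lost its call without untreated replicate 1 (adjusted p = 0.153), untreated replicate 2 (0.0556), pyruvate replicate 2 (0.0642) or pyruvate replicate 3 (0.101). Averaged with its other probe set, which was below the signal filter (means 8.97 untreated and 6.73 with pyruvate), Pdia4 was at 0.043 (adjusted p = 0.846). Canx encodes calnexin, the membrane-bound counterpart of calreticulin. It went from 2808 ± 74.95 to 2668 ± 108, at -0.074 (interval -0.18 to 0.034, adjusted p = 0.283), and a dimmer probe set fell by 0.38 (adjusted p = 0.0151). Pdia5, another isomerase, was at 177 ± 2.38 and 177 ± 10.1, with an interval of -0.16 to 0.16.

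In ER-associated degradation, 2 of the 7 genes tested rose and 1 fell, with a median of -0.011. The derlins, membrane proteins of the channel through which misfolded proteins leave the ER, went in opposite directions. Derl1 gave 1628.5, 1762.3 and 1843.1 untreated and 1125.4, 1495.1 and 1411.5 with pyruvate. The groups did not overlap, pyruvate replicate 1 was the lowest, and the fall was 0.38 (SE 0.09, adjusted p = 0.00788). The other 3 Derl1 probe sets were not called, at -0.083, -0.12 and -0.27. Derl2 rose from 748.0, 795.8 and 742.0 to 825.5, 842.5 and 906.7, by 0.17 (SE 0.05, adjusted p = 0.0353). Its call was lost without untreated replicate 1 (adjusted p = 0.118), untreated replicate 3 (0.110), pyruvate replicate 2 (0.0527) or pyruvate replicate 3 (0.123), and averaged over its probe sets it was at 0.032 (adjusted p = 0.685).
Derl3 was dim, with signals of 12.4, 26.2 and 21.0 untreated and 5.8, 5.5 and 6.6 with pyruvate. It was below the filter and so was not tested with the others, and in the fit without a filter it was at -0.69 (adjusted p = 0.0341).

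Edem2, one of the proteins that start the trimming of mannose from misfolded glycoproteins, rose from 234.6, 243.5 and 242.9 to 283.8, 277.3 and 277.7. The spread was small in both groups and the rise was 0.21 (SE 0.06, adjusted p = 0.0238). It was not called without untreated replicate 1 (adjusted p = 0.0925), untreated replicate 2 (0.0519) or untreated replicate 3 (0.0533), and averaged with its second, dim probe set it was at -0.078 (adjusted p = 0.624). Edem1, its relative and an Xbp1 target, was at -0.020 (interval -0.16 to 0.12), while a second Edem1 probe set of like brightness fell by 0.35 (adjusted p = 0.00634). Averaged over its probe sets, Edem1 was called lower, at -0.18 (adjusted p = 0.0274).
Syvn1 and Sel1l encode the ubiquitin ligase HRD1 and its partner. Syvn1 was at 389 ± 23.9 and 362 ± 13.5, a change of -0.10 (interval -0.24 to 0.040, adjusted p = 0.261). Sel1l was at -0.011 (interval -0.13 to 0.11), and 2 of its 4 other probe sets rose, by 0.22 and 0.26 (adjusted p = 0.0209 and 0.0158). Averaged over its probe sets, Sel1l was called higher, at 0.15 (adjusted p = 0.0383).
Herpud1, a stress-induced organiser of that complex, gave 505.4, 523.5 and 549.5 untreated and 564.4, 622.3 and 576.2 with pyruvate. Its groups did not overlap, but the difference of 0.15 (interval 0.028 to 0.28) had an adjusted p of 0.0621. Without pyruvate replicate 1 it was called (0.18, adjusted p = 0.0444).

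In the translocon and the TRAP complex, which sits beside the channel, 1 gene rose and 1 fell. Both belong to TRAP, and the median of the 5 genes was 0.11. Ssr2, TRAP beta, gave 926.5, 886.9 and 970.8 untreated and 765.7, 736.9 and 730.7 with pyruvate. The groups were clearly apart and the fall was 0.31 (SE 0.05, adjusted p = 0.000875). Ssr3, TRAP gamma, rose from 2582.4, 2701.9 and 2587.2 to 2858.5, 3088.1 and 2852.9, by 0.16 (SE 0.05, adjusted p = 0.0316), and its other probe set rose by 0.31 (adjusted p = 0.00144). The brightest Ssr3 probe set lost its call without untreated replicate 1 (adjusted p = 0.121), untreated replicate 2 (0.0520), untreated replicate 3 (0.0984) or pyruvate replicate 2 (0.0631).

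Within each array, the log2 difference Ssr3 minus Ssr2 was 1.46, 1.59 and 1.40 untreated and 1.88, 2.04 and 1.94 with pyruvate. The groups did not overlap and their means were 0.47 apart. Only the shift between groups is read from it, since the size of the difference depends on the probes. Subtracting 2 genes on the same array leaves out the array's overall level but not the upward shift of bright genes, and the pair was chosen after its values were seen.

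Ssr1, TRAP alpha, was at 0.11 (interval 0.0058 to 0.21, adjusted p = 0.1004), and a second probe set rose by 0.18 (adjusted p = 0.0173). The channel subunits were not called. Sec61b gave 1807.5, 1821.4 and 1880.9 untreated and 1993.8, 2013.9 and 1991.6 with pyruvate. Its groups did not overlap, and its difference of 0.12 (interval 0.025 to 0.22) had an adjusted p of 0.0553. Among the alternatives, Sec61b was called higher under the stricter filter (adjusted p = 0.0347) and under median centring (0.16, adjusted p = 0.035). It was also called in the fit of probe-set means (adjusted p = 0.0335), though it has only 1 probe set. Sec61a1, the channel's pore, was at 0.012 (interval -0.12 to 0.14), and none of its 6 probe sets was called.

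Probe sets of 1 gene often gave different answers. The 33 genes had 81 probe sets, of which 74 were tested, 15 rose and 17 fell. Of all probe sets tested, 32.2% were called, 16.3% higher and 15.9% lower. Over brightest probe sets rises outnumbered falls, and over all probe sets they did not. For 7 genes the brightest probe set was not called and another was: Ern1, Hspa5, Hsp90b1, Canx, Edem1, Sel1l and Ssr1. For the first 5 of these the called probe sets were lower and for the last 2 higher. Where in the transcripts these probe sets lie was not analysed here.

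**Figure D4:**
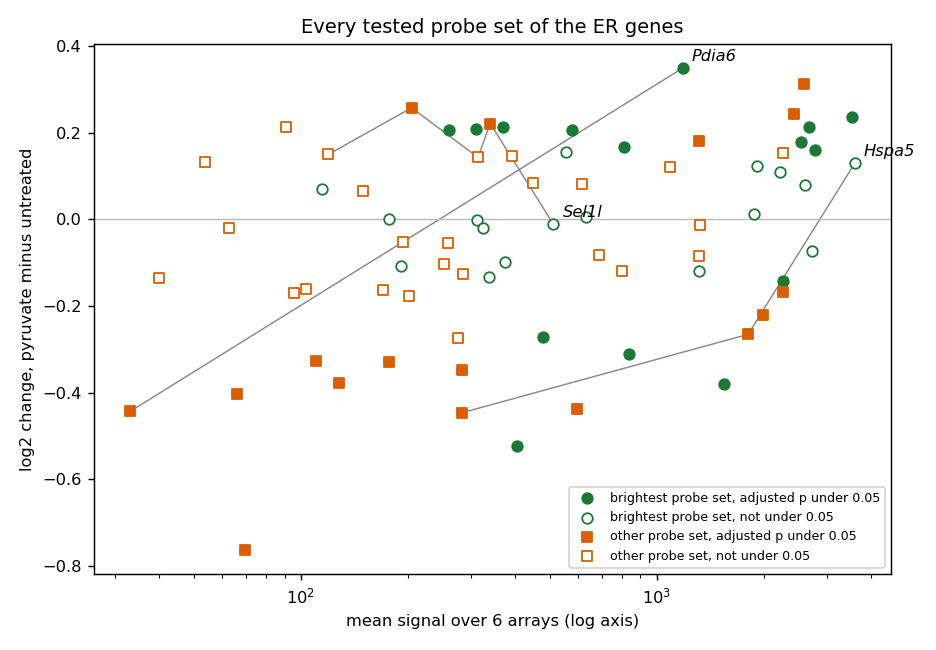
Every tested probe set of the ER genes by mean signal over 6 arrays (log axis) and log2 change, pyruvate minus untreated; circles are a gene's brightest probe set, squares its others, filled where the adjusted p is under 0.05, and grey lines join the probe sets of Hspa5, Pdia6 and Sel1l. Hspa5 runs from 0.13 at its brightest to -0.45, Pdia6 from 0.35 to -0.44, and Sel1l from -0.011 to 0.26.

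Beyond these genes, 116 others of the same pathways were listed, of which 110 matched, 103 were tested, 31 rose and 12 fell. That is 41.7% called, against 35.1% of all genes; by list the share was 61.5% for the ATF4 and CHOP branch, 54.5% for oligosaccharyltransferase, 40.0% for sensors and their processing, 39.3% for folding enzymes, 39.1% for degradation and 27.8% for translocation. The genes that did not match were not analysed here. The ATF4 and CHOP branch had the highest median of the 6 lists: 7 of 13 rose, 1 fell, and the median was 0.29. Atf4, the transcription factor of the branch, rose on its brightest probe set from 1936 to 2676, by 0.46 (adjusted p = 4.51e-05), while a second probe set fell from 1135 to 860.1, by 0.40 (adjusted p = 0.00242). Ddit3, which encodes CHOP, rose from 254 to 336, by 0.39 (adjusted p = 0.000710), and its dimmer probe set was at -0.18 (adjusted p = 0.291). Averaged over probe sets, Atf4 was at 0.029 (adjusted p = 0.704) and Ddit3 at 0.10 (adjusted p = 0.282). The Atf4 average included another probe set, below the signal filter, with means of 2.0 untreated and 2.3 with pyruvate.
Ppp1r15a, or GADD34, which directs dephosphorylation of eIF2alpha, rose by 0.37 (adjusted p = 0.0179). It lost its call without untreated replicate 3 (adjusted p = 0.0742) or pyruvate replicate 3 (0.0752). Trib3, a CHOP target, was at 0.019 (adjusted p = 0.912), and the ER oxidase Ero1a at -0.039 (adjusted p = 0.643). Without untreated replicate 3, 5 genes of the list were called.

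Among sensors and their processing factors, Creb3l1 and Wfs1 changed more than any of the 32 tested ER genes, by brightest probe sets. Fkbp14, Fam8a1 and Tram2, of the lists below, did so too. Derl3, below the signal filter, is not among the 32. Of the sensor list, 2 of 10 rose and 2 fell (median 0.035). Creb3l1, a membrane-bound factor of the ATF6 kind known for its part in collagen secretion, rose from 157 to 277, by 0.75 (adjusted p = 9.21e-05), and its relative Creb3 by 0.44 (adjusted p = 6.74e-05). Wfs1, the ER membrane protein wolframin, fell from 741 to 444, by 0.72 (adjusted p = 1.69e-05). Atf6b was at 0.10 (adjusted p = 0.383), and Mbtps1, the site-1 protease that cuts ATF6, at -0.089 (adjusted p = 0.264).

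Of 28 other folding enzymes, 8 rose and 3 fell (median 0.10). As deposited, the 3 with the largest changes were peptidyl-prolyl isomerases of the FKBP family, which act on collagen and other secreted proteins. Fkbp14 rose from 189 to 346.0, by 0.82 (adjusted p = 5.71e-06), Fkbp7 by 0.43 (adjusted p = 0.000383) and Fkbp11 by 0.36 (adjusted p = 0.0347). Fkbp11 lost its call without untreated replicate 1 (adjusted p = 0.0546), untreated replicate 2 (a change of 0.22, adjusted p = 0.115), pyruvate replicate 2 (0.102) or pyruvate replicate 3 (0.0866). Averaged with its other probe sets, which were below the signal filter, Fkbp11 was at -0.15 (adjusted p = 0.362). The list had 7 genes called without untreated replicate 1 or pyruvate replicate 3. Serpinh1, the collagen chaperone HSP47, is in the same list and fell, from 2454 to 1959, by 0.32 (adjusted p = 0.000350). After quantile normalization the Serpinh1 change, -0.41, was larger in size than that of Fkbp11, 0.36. As deposited, Txndc5 was close to Fkbp11, at 0.35 (adjusted p = 0.000204). In the same family and list, Fkbp2 rose by 0.16 (adjusted p = 0.0247) and Fkbp9 was not called (0.097). Serpinh1, Txndc5, Fkbp2 and Fkbp9 are named here after their values were seen. Of 2 collagen genes among the fibroblast markers, Col1a2 was higher and Col1a1 was at -0.24 (adjusted p = 0.0552).

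Of 23 other degradation genes, 7 rose and 2 fell (median 0.071). Fam8a1, a cofactor of HRD1, fell by 0.66 (adjusted p = 2.85e-06), while the lectin Erlec1 rose by 0.28 (adjusted p = 0.0172) and Faf2, an adaptor of the p97 ATPase, by 0.25 (adjusted p = 0.0126). Erlec1 was not called without untreated replicate 2 (adjusted p = 0.0638) or pyruvate replicate 2 (0.0623), nor Faf2 without untreated replicate 2 (0.0524). Without untreated replicate 3 the list had 5 genes called, and without untreated replicate 2 or pyruvate replicate 3 it had 6.
Of 18 other genes of translocation and signal recognition, 3 rose and 2 fell (median 0.0025). Tram2 and Tram1, translocating-chain proteins, fell by 0.56 (adjusted p = 0.000889) and by 0.21 (adjusted p = 0.00520), and the signal peptidase subunit Spcs1 rose by 0.34 (adjusted p = 0.000547). Averaged over its probe sets, including a probe set below the signal filter, Spcs1 was at 0.12 (adjusted p = 0.146). Without untreated replicate 1, 3 genes of this list were called.
Of the 11 oligosaccharyltransferase genes, 4 rose and 2 fell (median 0.091). Krtcap2 and Ost4 rose, by 0.29 and 0.27 (adjusted p = 0.00103 and 0.000725), and Magt1 fell by 0.38 (adjusted p = 0.000140). Averaged with its other probe set, which was below the signal filter, Ost4 was at 0.16 (adjusted p = 0.116). With untreated replicate 2, untreated replicate 3 or pyruvate replicate 2 left out, 4 were called.

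**Figure D5:**
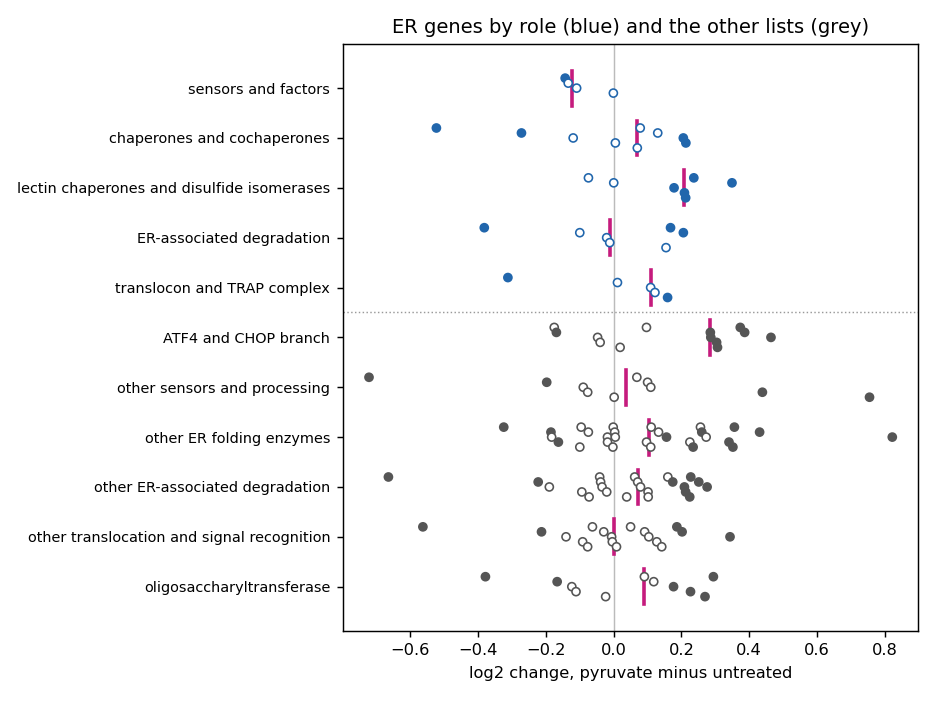
Each point is a tested gene's log2 change, pyruvate minus untreated, for the ER genes by role (blue, above the dotted line) and the other pathway lists (grey); filled points have an adjusted p under 0.05 and the vertical bar is the list's median. Medians run from -0.12 for the sensors and factors to 0.29 for the ATF4 and CHOP branch, and every list but the sensors holds changes on both sides of 0.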

How the data were processed

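RNA from 3 untreated and 3 pyruvate-treated C2C12 samples was measured on 1 array each. The deposited values are linear intensities, MAS5 signals per the submitters' processing notes, 1 for each of 45101 probe sets; no source used here gives MAS5's version or settings. The mean of the middle signals, with 2% trimmed at each end, was 150.0 on every array, so the authors had scaled them alike, and that scaling was kept. It hides any change in total RNA per cell. Arrays carry no read depth; their number limits the precision.

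Of 45037 probe sets other than controls, 34945 carried 1 symbol in the platform annotation, 932 several and 9160 none; only the first were named. Log2(signal + 16) was fitted with limma 3.58.1 in R 4.3.3 (lmFit, eBayes with the variance trended on the mean, two-sided tests), with Benjamini-Hochberg adjustment over the 22519 probe sets whose mean was at or above the median (signal 30.3). Fold changes on this scale understate those of dim genes. The 33 genes, their roles, the pathway lists and the tests were chosen with earlier results of these data known. Named genes were the 33, the 3 called genes of each pathway list with the largest absolute change, and Atf4, Ddit3, Trib3, Atf6b, Mbtps1 and Ero1a.

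Alternatives were pseudocounts of 1 and 64, no filter and a stricter one (75th percentile), quantile, median and cyclic loess normalization, no variance trend, robust variances, a block for the replicate number, an average of all probe sets of a gene, and each array left out. The average of a gene's probe sets includes those below the signal filter. Left-out fits keep 2 arrays in a group and pool the spread. Promoter and name tables were RefSeq's (GRCm38.p6). Protein sequences were not analysed here. Simulated data were used to test the limma step. Python 3.11.15 and matplotlib 3.10.9 drew the figures.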

Additional observations from a re-analysis of the deposited data

How the results depend on the processing

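For the 15 ER genes called, 255 results under 17 alternatives divided into 203 with the same call, 50 in the same direction without the call and 2 reversed. The 3 arrays in each group limit the precision. Without the filter on dim probe sets the counts went from 1 to 0 for sensors and factors, where the called gene was Xbp1, from 5 to 3 for lectins and isomerases, from 2 to 1 for the translocon and from 9 to 5 for other degradation. Under both quantile normalization and cyclic loess 3 lectins and isomerases were called, Pdia4 and Pdia6 higher and Canx lower, and 1 translocon gene. Median centring gave 0 sensors and factors and 4 translocon genes, and Hspa5 was called under it (0.16, adjusted p = 0.0336). Without the variance trend 9 ER genes were called, with 0 sensors and factors, 2 lectins and isomerases and 1 translocon gene, and among the other lists 3 degradation, 3 translocation and 3 oligosaccharyltransferase genes. Under the mean over probe sets 3 lectins and isomerases were called, Calr and P4hb higher and Canx lower; this setting has no count of probe sets. With 1 array left out, the counts ran from 9 to 17 ER genes, 0 to 1 sensors and factors, 3 to 5 lectins and isomerases, 1 to 4 degradation and 1 to 2 translocon genes, and in the other lists from 5 to 7 for ATF4 and CHOP, 7 to 10 for folding enzymes, 5 to 7 for degradation and 3 to 5 for translocation. The replicate numbers did not pair the samples: deviations of same-numbered arrays correlated at -0.0088, 0.014 and 0.021. With the replicate number as a block, 14 ER genes and 6917 probe sets were called, against 15 and 7250, and Derl2 lost its call (adjusted p = 0.0518). The changes that reversed were, under quantile normalization, Eif2ak3 at 0.012, Hspa5 at -0.088, Hsp90b1 at -0.038, Sel1l at 0.0014 and Sec61a1 at -0.046. Under median centring they were Eif2ak3 at 0.034, Sel1l at 0.023 and Edem1 at 0.014. Under cyclic loess they were Eif2ak3 at 0.018, Hspa5 at -0.027, Hsp90b1 at -0.051, Hyou1 at -0.0062, Sec61a1 at -0.091 and Ssr1 at -0.0062. Averaged over probe sets they were Eif2ak3 at 0.037, Hspa5 at -0.19, Hsp90b1 at -0.044, Pdia6 at -0.047, Sel1l at 0.15, Edem2 at -0.078, Trib3 at -0.17 and Fkbp11 at -0.15. With 1 array left out, Eif2ak3 ran from -0.035 to 0.043, Hyou1 from -0.010 to 0.019, Sdf2l1 from -0.064 to 0.23, Pdia5 from -0.042 to 0.029, Sel1l from -0.047 to 0.018, Edem1 from -0.068 to 0.012, Sec61a1 from -0.047 to 0.042 and Trib3 from -0.064 to 0.088. Apart from the mean over probe sets, whose construction adds other probes, the cause of these changes was not tested.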
